A study of Mus musculus with 80 samples.

Results

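*H19*, *Meg3*, *Rian*, *Grb10*, *Dlk1*, *Peg3*, *Mest*, *Plagl1*, *Ndn* and *Sgce* are 10 imprinted genes of the mouse that were taken by name for a description in muscle stem cells (MuSCs). The expression table of 25899 genes holds 9 of the 10, and *Rian*, a maternally expressed non-coding RNA, is not analysed here. MuSCs were sorted by their nuclear GFP from extraocular muscles (EOM) and from the *Tibialis anterior* (TA) muscle of the leg of *Tg*:*Pax7-nGFP* donors aged 7 to 7.6 weeks, in which the transgene reports *Pax7*, the transcription factor that marks these cells. Pre-graft libraries were made from 500 cells each, 8 of EOM and 8 of TA. Post-graft libraries, 7 of EOM and 7 of TA, came from donor cells that had been injected into TA muscles of *Rag2*-/-; *γC*-/- hosts, which lack lymphocytes, after injury with cardiotoxin, and that were sorted again by GFP at day 21, at numbers that went down to 9 cells a library. The day is that of the labels, and the text of the study gives a longer interval in its results. Both kinds of graft therefore sat in TA, and EOM and TA cells of 1 donor went into opposite legs of 1 host. RNA was sequenced by a protocol that does not keep the strand, and the values below sum the reads of both parental alleles, so that the allele of origin was not measured.

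An imprinted gene is transcribed mainly from the allele inherited from the mother or mainly from that of the father. For most such genes this comes from DNA methylation laid down in the germ line and kept on a single allele in the body. Many imprinted genes act on growth before birth and are turned down in adult tissues, but some stay active in adult stem cells, and *Peg3* is known as a marker of such cells in several tissues. They lie in clusters, in which a maternally expressed non-coding RNA such as *H19* or *Meg3* often stands beside a paternally expressed gene such as *Igf2*, *Dlk1* or *Rtl1*.

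The positions are those of the deposited table on build GRCm38. *H19* lies on chromosome 7 from 142575529 to 142578143 on the minus strand, and *Meg3* on chromosome 12 from 109541001 to 109571726 on the plus strand, downstream of *Dlk1* (109452823 to 109463336, plus strand). *Peg3* (6703892 to 6730421, minus strand) and *Ndn* (62348277 to 62349928, plus strand) are also on chromosome 7. *Sgce* (4674350 to 4747204, minus strand) and *Mest* (30723547 to 30748455, plus strand) are on chromosome 6, *Plagl1* (13090691 to 13131694, plus strand) is on chromosome 10 and *Grb10* (11930508 to 12038683, minus strand) on chromosome 11. *Mest* shares 912 bases with *Copg2* on the opposite strand, and *Rtl1* lies opposite the hairpins of 6 miRNA genes, so that without strand the reads of such neighbours cannot be told apart where they overlap.

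Several of these transcripts carry miRNA genes, and the mature sequences are shown for hosts that were called in at least 1 of the comparisons that follow. *H19* holds 1 such gene (*Mir675*), *Meg3* holds 2 and *Mest* holds 1 on its own strand. The 20 mature miRNAs in *H19*, *Meg3*, *Mest* and *Rtl1* have 20 different seeds, the bases 2 to 8 that pair with a target, and no seed is shared. The sequences are from RefSeq on GRCm38.p6, with the seed in capitals. The libraries were made from polyadenylated RNA and do not measure the mature miRNAs.
mmu-miR-675-5p, within *H19*, chr7:142577112-142577133, minus strand: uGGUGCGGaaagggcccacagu
mmu-miR-675-3p, within *H19*, chr7:142577078-142577099, minus strand: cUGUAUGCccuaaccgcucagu
mmu-miR-770-5p, within *Meg3*, chr12:109563710-109563731, plus strand: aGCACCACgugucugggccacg
mmu-miR-335-5p, within *Mest*, chr6:30741314-30741336, plus strand: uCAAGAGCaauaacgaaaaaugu
mmu-miR-127-3p, opposite *Rtl1*, chr12:109592888-109592909, plus strand: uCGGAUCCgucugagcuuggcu
mmu-miR-433-3p, opposite *Rtl1*, chr12:109591781-109591802, plus strand: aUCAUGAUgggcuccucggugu

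The 250 bases upstream of the start of *Meg3* and of *Peg3* are shown because these were the highest of the maternally and of the paternally expressed genes by reads before grafting, and because their levels beside those of MuSC markers in the grafts differ in the results that follow. The RefSeq promoters used here, on GRCm38.p6, are 12 for 8 of the 10 genes, each of 300 bases (250 before the start and 50 after it). Both promoters hold the cyclic AMP response element TGACGTCA, shown in capitals, which reads the same on both strands. It was found in 1.79% of 32851 promoters, and in none of the other 10 promoters of the set. The *Peg3* promoter also holds GGGGCCCC, the core letters bound by the PLAGL1 protein (1.08% of promoters). Of the other motifs searched on both strands, the E-box CAGCTG (16.3% of promoters) was found in 1 promoter of *Mest*, and GCCATNTT, the core letters bound by YY1 (6.05%), and the core motif of CTCF (0.0365%) were not found in these windows. These motifs do not overlap one another in the lines shown.
*Meg3*, chr12:109540746-109540995, plus strand: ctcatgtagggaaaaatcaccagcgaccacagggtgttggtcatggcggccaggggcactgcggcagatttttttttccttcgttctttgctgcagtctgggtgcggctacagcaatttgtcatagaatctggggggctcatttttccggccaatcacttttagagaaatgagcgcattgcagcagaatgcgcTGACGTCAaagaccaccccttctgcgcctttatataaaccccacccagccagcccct
*Peg3*, chr7:6730420-6730669, minus strand: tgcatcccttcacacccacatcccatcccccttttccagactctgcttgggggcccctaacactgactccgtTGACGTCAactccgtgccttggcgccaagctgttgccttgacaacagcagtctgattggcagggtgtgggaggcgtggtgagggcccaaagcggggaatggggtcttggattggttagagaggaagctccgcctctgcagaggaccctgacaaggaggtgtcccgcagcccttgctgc

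The 30 libraries hold 3326270 to 14402975 reads, of which 963432 to 4169357 were recovered on genes from the deposited values. All 14 MuSC markers were present in the table, and *Pax7* had 562 to 1133 reads in the EOM and 841 to 2699 in the TA libraries before grafting. The grafts stood apart. The summed level of the 14 markers had a median of 13598 (EOM) and 15162 RPM (reads of a gene scaled to library size, TA) before grafting and of 4083 (range 1280 to 13213) and 2927 RPM (326 to 9042) after it, while the 14 endothelial and mural markers went from 540 and 944 to 3106 and 4059 RPM. Median sums of 14 fibro-adipogenic markers were 3624 and 2868 RPM before and 2663 and 3709 RPM after grafting (EOM and TA), those of 14 myofibre markers 126, 232, 412 and 289 RPM, those of Schwann cell markers 783, 364, 335 and 394 RPM, and those of immune markers 21.6 to 35.5 RPM. The part of these cells in the results below was not tested. Mitochondrial genes took a mean of 4.84% and 14.5% of the recovered reads before and 44.3% and 38.4% after grafting. In such bulk samples, fewer cells of a type and less RNA per cell cannot be told apart. Libraries of 1 group correlated at 0.85 to 0.97 before and at 0.72 to 0.87 after grafting.

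Of the genes listed, *Peg3*, *Mest* and *Meg3* were the most abundant before grafting. Per kb of exon, the median level of *Peg3*, a zinc finger protein, was 185 RPM in EOM and 135 RPM in TA. *Mest*, an enzyme of the hydrolase family, followed at 121 and 72.5 RPM per kb, and *Meg3*, a long non-coding RNA, at 78.0 and 38.1 RPM per kb. *H19*, another long non-coding RNA, lay at 22.3 RPM per kb in EOM beside *Grb10* at 22.1, but in TA it lay at 4.31 RPM per kb and *Grb10*, an adaptor that restrains insulin receptor signalling, at 21.9. The libraries of *H19* (13.6 to 29.8 RPM per kb) and of *Grb10* (17.8 to 39.0) overlapped in EOM. *Plagl1*, a zinc finger transcription factor, came next (9.57 and 6.71), then *Sgce*, a sarcoglycan of the cell membrane (5.05 and 3.51), and *Dlk1*, a transmembrane protein related to Notch ligands, was lowest (0.828 and 0.304 RPM per kb). After grafting *Meg3* lay at a median of 2.37 (EOM) and 1.79 RPM per kb (TA), below *Plagl1* and *Sgce*, while *Peg3* still led at 54.5 and 34.8 RPM per kb. The grafts of *Meg3*, *Plagl1* and *Sgce* overlapped in both muscles, and their order depends on exon length. By median reads *Meg3* lay above *Plagl1* and *Sgce* in the EOM grafts (117 against 57 and 67) and below them in the TA grafts (50 against 120 and 75). The exons used for *Ndn* are longer than its interval in the table, so it is not placed in this order.

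**Figure D1:**
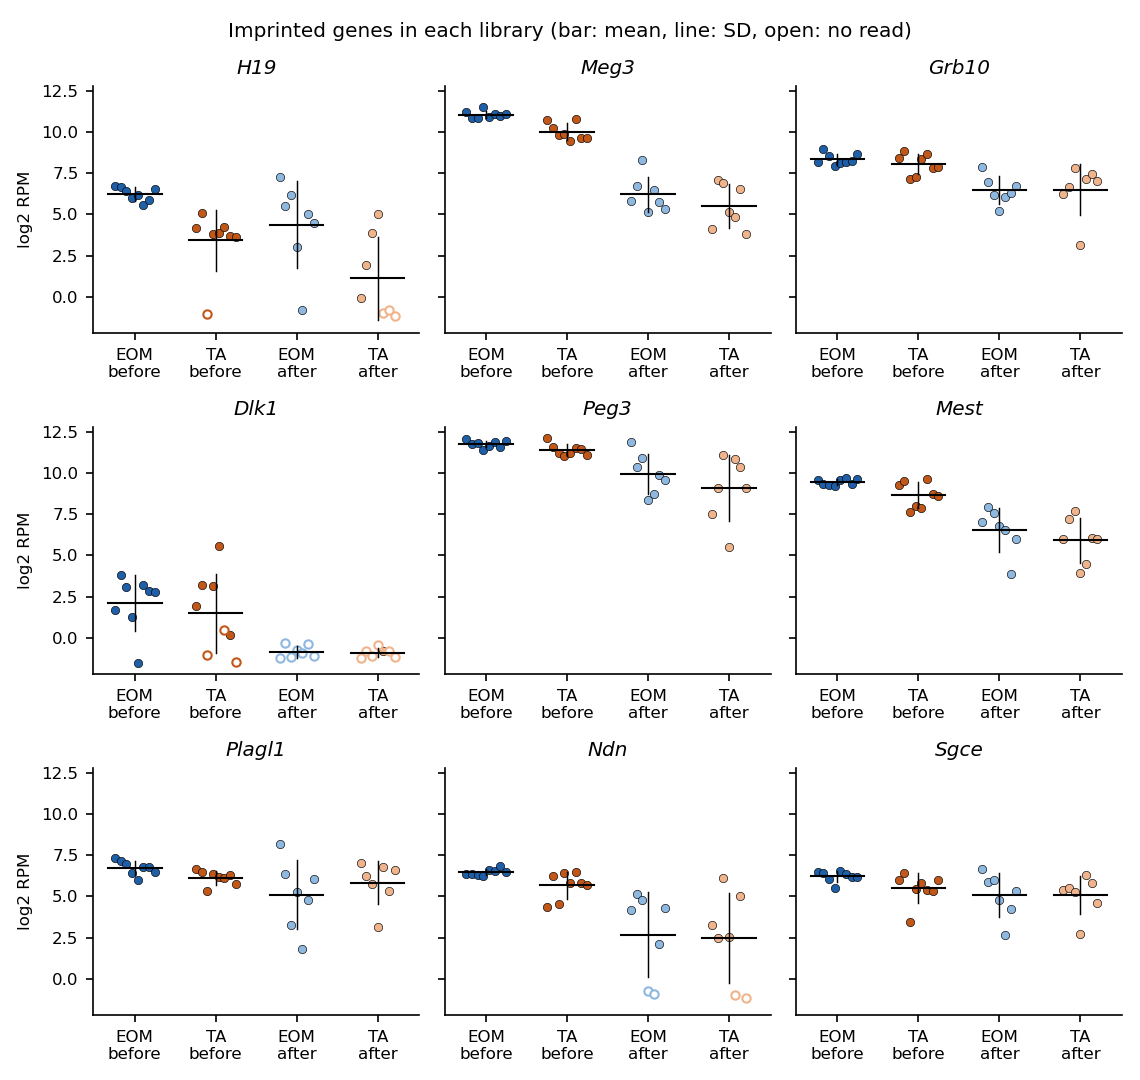
Each point is 1 library and the y axis gives the log2 RPM of the 9 imprinted genes in 8 EOM and 8 TA libraries before and 7 and 7 after grafting, with the mean as a bar and the SD as a line. Open points are libraries without a read. *Meg3* is the gene whose libraries before and after grafting do not overlap in either muscle, and *H19* separates EOM from TA before grafting.

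Before grafting, the maternally expressed non-coding RNAs differed between the muscles. *H19* had 109, 156.5 and 252 reads (lowest, median and highest) in the 8 EOM libraries and 0, 29.5 and 45 reads in the 8 TA libraries. Every EOM library lay above every TA library, and 1 TA library had no read. Mean log2 RPM was 6.25 ± 0.41 (SD, n = 8) in EOM and 3.43 ± 1.86 (SD, n = 8) in TA, a difference (TA minus EOM) of -2.83 (SE 0.58, adjusted p = 0.00317). Tests here and below are two-sided and were made with limma on log2 RPM, with Benjamini-Hochberg adjustment over every gene above a low limit. Called means that the adjusted p lay under 0.05 and that the log2 difference was larger than 1. The p-values measure the spread between these libraries, which come from 9 donor mice. *Meg3* had 2789, 4775.5 and 5906 reads in EOM and 1159, 1611 and 3118 in TA. Its libraries did not overlap on the log2 RPM scale either, with means of 11.05 ± 0.23 (SD, n = 8) and 10.02 ± 0.51 (SD, n = 8) and a difference of -1.03 (SE 0.19, limma adjusted p = 0.00104). *Grb10* had 414, 745.5 and 1061 reads in EOM and 260, 495.5 and 646 in TA, and its log2 difference of -0.29 (SE 0.22, adjusted p = 0.435) did not pass.

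The size of the *Meg3* difference lay at the limit of the call. The difference was called in 6 of 13 other settings, where it ran from -1.24 to -0.74. The highest adjusted p among these settings (limma, edgeR or DESeq2) was 0.335. With the donor mouse as replicate block it was -0.98 (limma adjusted p = 0.00233), and *H19* was -2.87 (adjusted p = 0.00358). Without EOM of mouse 1 of Experiment 2, or without TA of mouse 3, 5 or 6 of Experiment 2, *Meg3* lay at -0.96, -0.94, -0.97 and -0.98. It was -1.24 in Experiment 2 alone (5 EOM and 6 TA libraries) and -0.48 between the means of Experiment 1 (3 EOM and 2 TA libraries, not tested), where *H19* differed by -1.97 and in Experiment 2 by -3.02. Centred on the median of each library, *Meg3* was at -0.79 (limma adjusted p = 0.0027) and *H19* at -2.59 (limma adjusted p = 0.00521). Among 7 donors with both libraries, TA lay below EOM in 7 of 7 for *H19* (median difference -2.41), *Meg3* (-1.02) and *Ndn* (-0.76).

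None of the paternally expressed genes was called between the muscles before grafting. *Mest* had 982, 1467 and 2182 reads in EOM and 365, 681 and 1166 in TA, with a log2 difference of -0.79 (SE 0.24, limma adjusted p = 0.0486), and in Experiment 2 alone it was called, at -1.07 (limma adjusted p = 0.0431). *Ndn*, a member of the MAGE protein family that restrains growth, had 126, 198.5 and 274 reads in EOM and 38, 101.5 and 205 in TA (-0.78, SE 0.27, adjusted p = 0.0842). The values of *Plagl1* were 142, 235.5 and 306 against 44, 138 and 195 reads (-0.59, SE 0.21, adjusted p = 0.0933), and those of *Sgce* were 77, 172.5 and 263 against 20, 108.5 and 158 (-0.74, SE 0.31, adjusted p = 0.148). The EOM and TA libraries of these 4 genes overlapped. *Peg3* had 4589, 7816 and 10263 reads in EOM and 1866, 4854 and 8174 in TA (-0.36, SE 0.16, adjusted p = 0.168). *Dlk1* was at 1, 16.5 and 24 reads in EOM and at 0, 4.5 and 93 in TA, where 3 libraries had no read and 1 library held more than all the others together (-0.64, SE 0.94, adjusted p = 0.702). Its mean was 4.45 RPM in EOM and 6.23 RPM in TA, and edgeR and DESeq2 put the difference at 0.74 and 0.75. In all, 2 of the 9 genes were called, beside 4.56% of the 13217 genes tested, and the libraries of the same 2 did not overlap, beside 2.28% of all genes. The median log2 difference of the 9 was -0.74 and that of all genes -0.30.

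**Figure D2:**
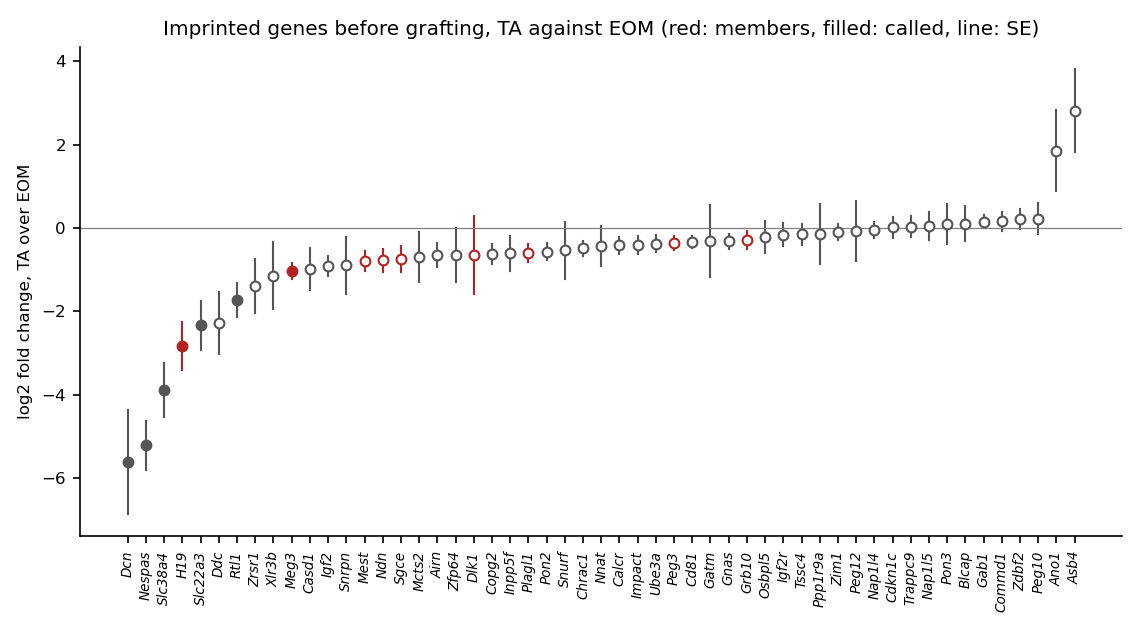
Log2 fold change (TA over EOM, y axis) with its SE for each imprinted gene tested before grafting, in order of size (x axis), with the 9 listed genes in red, other imprinted genes in grey and filled points called. *H19*, at -2.83, comes after *Dcn*, *Nespas* and *Slc38a4* from the lower end.

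After grafting, *Meg3* fell in both muscles, and it was called lower in each of the 14 other settings tried. In EOM it went from 2789 to 5906 reads (median 4775.5) to 53, 117 and 625 reads in the 7 grafts, and in TA from 1159 to 3118 (median 1611) to 28, 50 and 233 reads. Libraries before and after grafting did not overlap in either muscle. Mean log2 RPM was 6.22 ± 1.08 (SD, n = 7) in the EOM and 5.50 ± 1.35 (SD, n = 7) in the TA grafts, a change of -4.84 (SE 0.36, limma adjusted p = 3.64e-08) and of -4.53 (SE 0.45, limma adjusted p = 2.42e-06), or 28.6-fold and 23.1-fold. Of 13076 genes tested in TA, 0 had a smaller p than *Meg3* and 47 a lower fold change, and of 13094 in EOM, 1 had a smaller p and 40 a lower fold change. All 6 EOM donors and all 7 TA donors with libraries at both stages had a lower *Meg3* after grafting, by -2.61 to -5.76 and by -2.76 to -6.62 on the log2 scale.

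The median log2 change of all genes was itself -1.48 in EOM and -1.09 in TA, so the counts of called genes stand beside a large background. In EOM all 9 genes were called lower, beside 55.8% of all genes, and the groups of 4 of them (*Meg3*, *Grb10*, *Mest* and *Ndn*) did not overlap, beside 11.3% of all genes. In TA 6 of 9 were called lower, beside 30.9% of all genes, and *Meg3* alone did not overlap, beside 5.19%. The counts of called genes in both muscles include *Dlk1*, which entered the tests only through its pre-graft libraries. The median change of the 9 was -1.88 in EOM (-1.87 with *Dlk1* at the bound given below) and -2.33 in TA. When each library was centred on its own median, 3 of 9 were called lower in EOM (*Meg3*, *Ndn* and *Mest*), beside 4.84% of all genes, and 3 of 9 in TA (*Meg3*, *Mest* and *Peg3*), beside 5.68%. *Meg3* was then at -3.59 (limma adjusted p = 8.97e-06) in EOM and -3.63 (limma adjusted p = 3.66e-05) in TA.

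*Mest* went from 982, 1467 and 2182 reads to 17, 165 and 376 in EOM and from 365, 681 and 1166 to 19, 125 and 404 in TA. It fell by 2.91 (SE 0.42, limma adjusted p = 8.98e-05) and by 2.75 (SE 0.48, limma adjusted p = 0.000601) on the log2 scale, and the groups overlapped in TA but not in EOM. *Ndn* went to 0, 38 and 54 reads in EOM and to 0, 9 and 136 in TA, with 2 grafts of each muscle without a read, and fell by 3.77 (SE 0.79, limma adjusted p = 0.0012) and 3.20 (SE 0.87, limma adjusted p = 0.00897). *Peg3* went to 495, 1450 and 7909 reads in EOM and to 55, 1071 and 4249 in TA, and fell by 1.81 (SE 0.38, limma adjusted p = 0.0013) and 2.33 (SE 0.58, limma adjusted p = 0.00564). The highest grafts of both muscles lay within the range of *Peg3* before grafting. *Grb10* was at 54, 143 and 500 reads in the EOM grafts (-1.88, SE 0.33, limma adjusted p = 0.000401) and at 11, 252 and 440 in the TA grafts (-1.55, SE 0.51, limma adjusted p = 0.0228). Without TA of mouse 3 of Experiment 2, the graft with 11 reads, the change of *Grb10* in TA was -0.997 (limma adjusted p = 0.0207) and just short of the limit of 1.

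*Dlk1* was no longer detected in most grafts. The EOM libraries held 108 reads of it before grafting, all 8 with at least 1, and the 7 EOM grafts held 0. At 3 reads a library, which a count of 0 allows, the mean RPM was at least 2.97-fold lower. The TA libraries held 135 reads before grafting, 93 of them in 1 library, and the TA grafts held 1. At 3 reads a library the bound in TA was 4.24-fold. The 95% counting interval of the ratio of before to after ran from 16.7 upward in EOM and from 18.1 to 4079 in TA. It leaves out the spread between libraries. *Dlk1* was called lower in both muscles by limma (adjusted p = 0.00249 in EOM and 0.0337 in TA), but its fitted fold depends on the value set for a count of 0. It entered these tests only through pre-graft libraries, since no graft passed a log2 RPM of 1 (highest -0.34). Of the 15 TA fits that left out 1 library, 11 could test *Dlk1* and 10 called it. In TA it was called in 5 of 12 other settings. The call was lost with the donor as replicate block (adjusted p = 0.062), among others, and without TA graft of mouse 6 of Experiment 2 (adjusted p = 0.0513).

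*H19*, *Plagl1* and *Sgce* were called lower in EOM and not in TA, and their EOM calls were the least stable. *H19* was at 1, 43 and 322 reads in the EOM grafts (-1.87, SE 0.79, limma adjusted p = 0.0454) and at 0, 2 and 40 in the TA grafts, 3 of them without a read (-2.31, SE 1.03, limma adjusted p = 0.0787). *Plagl1* was at 6, 57 and 612 reads in the EOM grafts (-1.64, SE 0.65, adjusted p = 0.0342) and at 11, 120 and 270 in the TA grafts (-0.30, SE 0.48, adjusted p = 0.614). *Sgce* had 11, 67 and 214 reads in the EOM grafts (-1.14, SE 0.47, adjusted p = 0.0415) and 8, 75 and 139 in the TA grafts (-0.40, SE 0.53, adjusted p = 0.549). The libraries before and after grafting overlapped for all 3 genes in both muscles. The EOM calls of *H19*, *Plagl1* and *Sgce* remained in 4, 9 and 4 of the 15 fits that left out 1 library. Without EOM of mouse 4 of Experiment 2, a graft of 9 cells, they lay at -1.01 (limma adjusted p = 0.082), -1.08 (0.0813) and -0.74 (0.0918), and with the donor as replicate block the adjusted p were 0.102, 0.0702 and 0.127. In TA, *H19* was called at -2.76, -2.96 and -2.94 without the graft of mouse 2 or 3 or the pre-graft library of mouse 1 of Experiment 2 (limma adjusted p = 0.0394, 0.034 and 0.0243).

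The changes were also fitted without the 4 grafts of under 20 cells. *Meg3* was then at -4.68 (limma adjusted p = 3.35e-07) in EOM and -4.13 (limma adjusted p = 3.35e-05) in TA, and *Mest* at -2.97 and -2.37 (adjusted p = 0.000326 and 0.00229). *H19* was at -0.56 (limma adjusted p = 0.236) in EOM. In the means of Experiment 1, with 1 graft of each muscle and no test, *Meg3* changed by -5.17 in EOM and -6.37 in TA, and in Experiment 2 alone by -4.83 (limma adjusted p = 5.52e-05) and -4.15 (limma adjusted p = 0.000298).

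The levels of MuSC markers moved with these changes, and they did so differently for each gene. When each library was centred on the mean log2 RPM of its 14 MuSC markers, *Meg3* was still called lower in both muscles, at -2.45 in EOM (SE 0.49, limma adjusted p = 0.00158) and -1.63 in TA (SE 0.50, limma adjusted p = 0.00751). It was the only one of the 9 called lower, beside 0.672% of all genes called lower in EOM and 0.184% in TA on that scale. *Mest* was at -0.53 in EOM (limma adjusted p = 0.463) and 0.15 in TA (0.783), and *Ndn* at -1.39 (0.0631) and -0.30 (0.783). *Peg3* was at 0.58 (limma adjusted p = 0.0979) and 0.57 (0.143). *Sgce* was called higher in both muscles on that scale (1.25 and 2.50), and *Plagl1* (2.59) and *Grb10* (1.35) in TA, where the median of all genes was at 1.81 (0.91 in EOM). Of all genes, 3553 of 13094 were called higher in EOM and 7320 of 13076 in TA on that scale.

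*Peg3* stayed close to the MuSC markers in the grafts. The SD of its log2 RPM over the 7 EOM grafts was 1.21, and it was 0.55 once each library was centred on the markers, and over the 7 TA grafts the SD went from 2.01 to 0.54. *Meg3* showed the opposite, with SDs of 1.08 and 1.35 that became 1.56 and 1.54. The spread also narrowed in EOM for *Sgce* (1.34 to 0.47), *H19* (2.64 to 1.31), *Ndn* (2.59 to 1.56) and *Plagl1* (to 1.45), and in TA for *Grb10* (1.56 to 0.52), *Sgce* (1.17 to 0.92) and *Mest* (1.35 to 1.26). As for *Meg3*, it widened in EOM for *Mest* (1.34 to 1.67) and *Grb10* (0.84 to 0.99). In TA it widened for *H19* (2.52 to 3.47), *Ndn* (2.76 to 2.93) and *Plagl1* (1.32 to 1.38). *Dlk1*, at 0 or 1 reads a graft, widened in both muscles. *Calcr*, which is 1 of the 14 markers, is itself listed among imprinted genes.

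**Figure D3:**
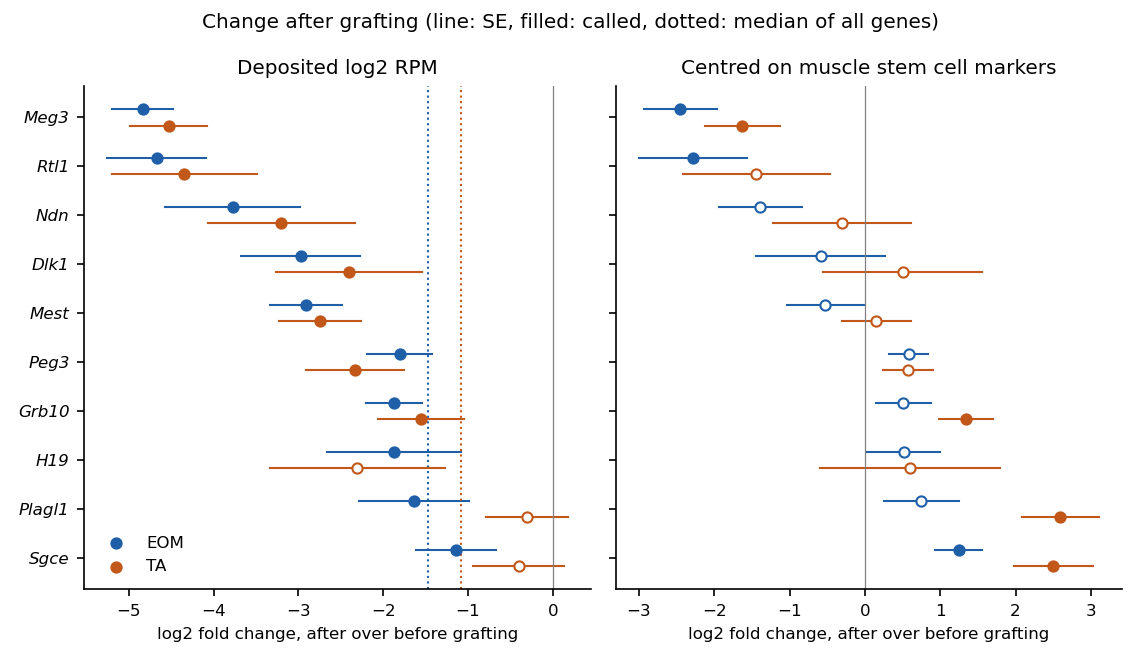
Log2 fold change after over before grafting (x axis) with its SE for the 9 genes and *Rtl1* (y axis) in EOM (blue) and TA (orange), on the deposited log2 RPM (left, dotted lines at the medians of all genes, -1.48 and -1.09) and after centring on MuSC markers (right). Filled points are called. *Meg3* stays below 0 on both scales, while *Peg3* moves from -1.81 and -2.33 to 0.58 and 0.57.

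A single EOM graft shows the contrast within 1 library. EOM of mouse 4 of Experiment 1, the graft with the most cells, had a summed level of MuSC markers of 13213 RPM, within the range of EOM before grafting (11375 to 15152 RPM), and 5.59% mitochondrial reads. It held 7909 reads of *Peg3* (2899 RPM, against 2430 RPM in the pre-graft library of the same donor) and 1100 of *Pax7* (403 against 357 RPM). Its *Meg3* was at 117 reads, or 42.9 RPM against 1264 RPM before grafting in that donor, and its *Rtl1* at 4.03 against 110 RPM. *Mest* was at 101 against 445 RPM and *Ndn* at 13.9 against 57.1 RPM. *H19*, *Plagl1* and *Sgce* were higher after grafting in this donor, at 118 against 69.8, 224 against 98.3 and 78.4 against 60.7 RPM. The *H19* reads of this graft, 322, lay above all 8 EOM libraries before grafting. This is 1 donor.

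**Figure D4:**
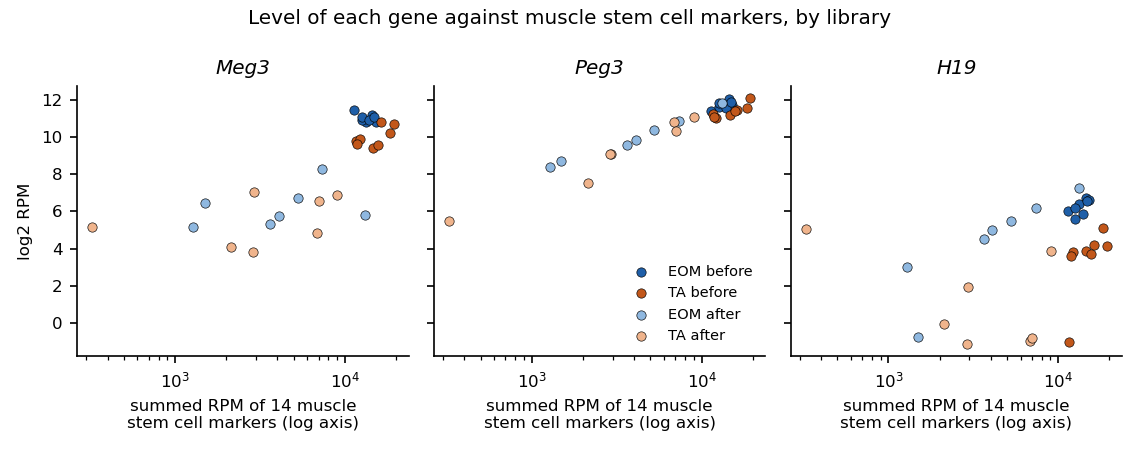
Log2 RPM of *Meg3*, *Peg3* and *H19* (y axis) against the summed RPM of 14 MuSC markers (x axis, log scale) for 30 libraries, 1 point each, coloured by group. *Peg3* follows the markers across the grafts, and the *Meg3* levels of the grafts lie below all pre-graft libraries. Only 1 graft, at 13213 RPM, has summed markers within the pre-graft range.

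Between EOM and TA grafts, none of the 8 genes tested was called. *Dlk1* was too low to be tested. Of all 12377 genes, 0 were called by limma (0% of genes), and 452 had an unadjusted p below 0.05. *H19* had the largest difference among the 8, at -3.26 (TA minus EOM, SE 1.21, unadjusted p = 0.0106, limma adjusted p = 1.00), with 1 to 322 reads in EOM and 0 to 40 in TA grafts. Without the 4 grafts of under 20 cells it was -4.90 (unadjusted p = 0.00024, limma adjusted p = 0.369). The differences of the other genes were -0.89 for *Peg3*, 0.74 for *Plagl1*, -0.72 for *Meg3*, -0.62 for *Mest*, -0.21 for *Ndn*, 0.03 for *Grb10* and 0.00 for *Sgce*, with SEs of 0.60 to 1.24. The intervals were wide, and that of *Meg3* ran from -1.98 to 0.55. The libraries of all 8 genes overlapped, and 0.0162% of all genes did not.

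Set against each other, the changes of EOM and TA (EOM minus TA) differed past the thresholds for none of the 9 genes, beside 0.208% of 14428 genes. It was -0.31 (SE 0.60, 95% interval -1.53 to 0.91, limma adjusted p = 0.946) for *Meg3* and 0.43 (SE 1.34, interval -2.28 to 3.15, adjusted p = 0.963) for *H19*. That of *Plagl1* was -1.33 (SE 0.83, limma adjusted p = 0.771), so its call in EOM and not in TA was not shown to differ between the muscles, and the same holds for *Sgce* (-0.74, SE 0.72, adjusted p = 0.879). The others were 0.53 for *Peg3*, -0.16 for *Mest*, -0.57 for *Ndn*, -0.57 for *Dlk1* and -0.32 for *Grb10* (adjusted p from 0.921 to 0.969). *Dlk1* had 0 or 1 reads in every graft and passed the filter only through pre-graft libraries. Its value here therefore says little beyond its levels before grafting, and whether its changes differ could not be tested.

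*Rtl1*, the paternally expressed neighbour of *Meg3* made from a former retrotransposon, was described with its cluster. It had 243, 338 and 673 reads in EOM and 22, 91.5 and 289 in TA before grafting (-1.72, SE 0.41, limma adjusted p = 0.0101), and 1, 11 and 43 reads in the EOM and 0, 6 and 37 in the TA grafts. It fell by 4.67 (SE 0.58, limma adjusted p = 3.02e-05) in EOM and by 4.34 (SE 0.86, limma adjusted p = 0.00141) in TA. Centred on MuSC markers it was at -2.29 (limma adjusted p = 0.0215) in EOM and -1.44 (limma adjusted p = 0.203) in TA. Reads counted for *Rtl1* may come from the transcript of the opposite strand, which carries miR-127 and miR-433 and runs in the direction of *Meg3*. *Igf2*, the growth factor beside *H19*, had 208, 323 and 341 reads in EOM and 54, 134.5 and 190 in TA (-0.91, SE 0.24, limma adjusted p = 0.0227, not called for its size), and 15, 115 and 596 and 8, 87 and 333 reads in the grafts (-1.26 and -0.83, adjusted p = 0.072 and 0.216).

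Of the other partners in these clusters, *Copg2*, which overlaps *Mest*, had 212 to 581 reads in EOM and 124 to 402 in TA before, and 5 to 191 and 4 to 241 after grafting, and fell by 3.03 in EOM (limma adjusted p = 0.000213) and 2.44 in TA (limma adjusted p = 0.00617). *Zim1*, beside *Peg3*, fell by 1.71 and 2.83 (limma adjusted p = 0.00862 and 0.00878). *Peg12*, near *Ndn*, fell by 2.52 and 3.26 (limma adjusted p = 0.0229 and 0.0153), and *Snrpn* fell by 3.49 in EOM (adjusted p = 0.00412) and was at -1.89 in TA (adjusted p = 0.1). *Peg10* and *Casd1*, beside *Sgce*, fell by 1.90 and 1.94 in EOM (limma adjusted p = 0.0291 and 0.0233) and were at -0.94 and 0.23 in TA. *Cobl*, near *Grb10*, fell by 2.22 and 3.13 (limma adjusted p = 0.0362 and 0.015), and *Ddc* fell by 2.54 in EOM (limma adjusted p = 0.00575). *Wdr25*, near *Dlk1*, fell by 3.07 in EOM (limma adjusted p = 0.00174), and *Nap1l4* by 1.33 and 1.60 (limma adjusted p = 0.00553 and 0.00557). *Peg12* had no read in 4 of 7 EOM and 5 of 7 TA grafts. In EOM, 5 of 7 grafts had no read of *Wdr25*, 3 none of *Snrpn* and 3 none of *Ddc*. The folds of these 4 genes depend on the value set for a count of 0. *Cdkn1c*, a brake of the cell cycle, was at 0.50 and 0.14 (limma adjusted p = 0.27 and 0.758). *Dio3*, *Usp29*, *Magel2*, *Mkrn3* and *Begain* had a median of 0 reads in each group except *Mkrn3* in EOM (3) and *Begain* in TA (4) before grafting. With the donor as replicate block, *Zim1*, *Peg12*, *Peg10*, *Casd1*, *Cobl* and *Ddc* were no longer called in EOM (limma adjusted p = 0.0601, 0.106, 0.137, 0.142, 0.0916 and 0.0696). Of the 19 partners, 18 were in the table and 14 were tested before grafting, where 0 were called higher and 1 lower, beside 4.56% of all genes called. After grafting 11 of 14 were called lower in EOM, beside 55.8% of all genes, and 5 with the block, beside 4451 of 13094 genes. In TA 6 of 14 were called lower, beside 30.9% of all genes, and 0 were called higher in either muscle. On values centred on the median of each library 2 (*Rtl1* and *Copg2*) were called lower in EOM, beside 4.84% of all genes, and 1 (*Rtl1*) in TA, beside 5.68%, and *Cdkn1c* was called higher in both.

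Among 69 other genes listed as imprinted in the mouse, 61 were in the table. Whether each of them is imprinted in MuSCs was not measured. Before grafting 44 were tested, and 0 were called higher in TA and 5 lower, beside 4.56% of all genes called (166 higher and 437 lower of 13217). The median difference of the 44 was -0.39 (all genes -0.30). The 5 were *Dcn*, a proteoglycan of connective tissue, at -5.62 (SE 1.24, limma adjusted p = 0.00592), *Nespas*, an antisense RNA of the *Gnas* locus, at -5.22 (SE 0.58, limma adjusted p = 2.9e-06), *Slc38a4*, an amino acid transporter, at -3.89 (SE 0.64, limma adjusted p = 0.000353), *Slc22a3*, a transporter of organic cations, at -2.33 (SE 0.59, limma adjusted p = 0.0156), and *Rtl1*. *Nespas* had 39, 54.5 and 114 reads in EOM and 0, 0 and 11 in TA, 5 libraries without a read, and *Slc38a4* had 27, 70 and 98 against 0, 3.5 and 13. Both separated the muscles without overlap. *Dcn* is also a marker of fibro-adipogenic cells, and 4 of 8 TA libraries had no read of it while 1 had 2413. The part of other cells in it was not tested. Its mean was 136 RPM in EOM and 100.5 RPM in TA, and edgeR and DESeq2 called neither *Dcn* (-0.13 and -0.11) nor *Slc22a3* (-1.31 by both). *Asb4*, named here after its values were seen, was called higher in TA by edgeR (3.16), DESeq2 (3.15) and with the donor as replicate block (3.65), and not by limma without the block. The summed level of the 14 fibro-adipogenic markers was 2431 to 4668 RPM in EOM and 2103 to 4909 RPM in TA.

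After grafting 31 of 46 other imprinted genes tested were called lower and 2 higher in EOM (median change -1.57, all genes -1.48), where 55.8% of all genes were called lower. With the donor as replicate block 22 were called lower and 1 higher in EOM, beside 4451 lower and 309 higher of 13094 genes. In TA, without the block, 13 of 45 were called lower and 2 higher (-1.14, all genes -1.09), where 30.9% of all genes were called lower. Centred on the median of each library, 7 were called lower and 4 higher in EOM, beside 634 lower and 871 higher of 13094 genes. In TA 7 were called lower and 6 higher on that scale, beside 743 lower and 1003 higher of 13076 genes. *Slc22a3* fell by 6.70 in EOM (limma adjusted p = 2.2e-06), and in TA, where it had 458 reads before and 0 in the 7 grafts, it was at least 17.2-fold lower at 3 reads a library. *Nap1l5*, a histone chaperone-like protein, went from 44 to 131 and 22 to 145 reads to 0 to 32 and 0 to 7, and fell by 3.65 (limma adjusted p = 0.00103) in EOM and fell by 5.25 in TA (limma adjusted p = 0.00017). *Zdbf2* fell by 4.96 in EOM (limma adjusted p = 7.17e-05) and by 2.14 in TA (limma adjusted p = 0.0055). In EOM *Nespas* fell by 5.12 and *Slc38a4* by 4.91 (limma adjusted p = 3.67e-05 and 7.64e-05), and *Gatm*, an enzyme of creatine synthesis, by 3.59 (limma adjusted p = 0.00244). No read was found in 6 of 7 EOM grafts for *Nespas* and for *Slc38a4*, in 5 for *Slc22a3* and in 3 for *Gatm*. *Nap1l5* had none in 5 of 7 TA grafts. The fitted folds of these genes depend on the value set for a count of 0. In EOM *Nespas*, *Slc38a4* and *Slc22a3* passed the filter through their pre-graft libraries. *Calcr*, the calcitonin receptor of quiescent MuSCs, had 420 to 1374 and 271 to 855 reads before and 2 to 582 and 1 to 362 after grafting, and fell by 3.11 and 3.66 (limma adjusted p = 0.00279 and 0.00179). *Trappc9*, of a vesicle tethering complex, fell by 2.55 and 3.09 (limma adjusted p = 0.006 and 0.00643). *Dcn* rose in TA by 6.56 (limma adjusted p = 0.00369) and *Ano1*, a chloride channel, by 3.83 in EOM and 3.59 in TA (limma adjusted p = 0.00398 and 0.0219). In TA edgeR and DESeq2 called neither *Dcn* (2.72 and 2.82) nor *Ano1* (2.83 and 2.92). Of 13 genes known to keep imprints, 10 were tested in EOM and 9 in TA. Called lower were 3 of 10 in EOM, beside 55.8% of all genes, and 1 of 9 in TA, beside 30.9%. *Dnmt3b*, *Ctcf* and *Trim28* fell in EOM (2.63, 1.55 and 1.51, limma adjusted p = 0.0132, 0.00789 and 0.00413), *Trim28* fell by 1.34 in TA (limma adjusted p = 0.0229), *Ctcf* was not called in EOM with the donor as replicate block, and 0 were called in either muscle after centring on the median.

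Correlations within groups are given for pairs of the imprinted genes, without those of pairs of all genes beside them. Whether the imprinted genes move together more or less than other genes was not tested. After each library was centred on its median and the group means were removed, the 28 pairs of the 8 genes above the low limit had a median Pearson r of 0.12 over 30 libraries, 19 pairs were above 0 and 2 above 0.5. *Grb10* and *Peg3* had the highest value (0.69) and *Meg3* and *Plagl1* the lowest (-0.71). Among 11449 genes, *Sdc4* (0.93) and *Chodl* (0.92), both of them MuSC markers, were most like *Peg3*. For *Meg3* they were *Gm13620* (0.81), *Cep192* (0.76) and *2010204K13Rik* (0.76), for *H19* *Npat* (0.80), *Pcgf6* (0.80) and *Mrps28* (0.76), and for *Ndn* *1600012F09Rik* (0.90), *March8* (0.87) and *Cno* (0.83). *Mest* was most like *1110057K04Rik* (0.80), *Mxra7* (0.74) and *2610307P16Rik* (0.74), and *Grb10* most like *Eif3h* (0.77), *Rpl31-ps8* (0.76) and *Cd302* (0.76). The values for *Plagl1* were 0.81 with *Echs1*, 0.81 with *Tmem135* and 0.77 with *Iars2*, and for *Sgce* 0.80 with *Crtc1*, 0.72 with *Tmem64* and 0.71 with *Rcn1*. These are descriptions over libraries that share depth and cell content.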

How the data were processed

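The 10 genes, and the lists of other imprinted genes, cluster partners, genes that keep imprints and cell type markers, were chosen with earlier results of these data known. RNA of sorted EOM and TA MuSCs was sequenced in 40 libraries, and the 30 that pass the quality table of the study were compared. The labels name Trim Galore 0.4.4 and HISAT2 2.1.0 for the reads and the build GRCm38, and the authors took counts corrected for library size to log2 in Seqmonk. The deposited values are log2 RPM. A deposited quality table by the authors gives total read counts, and the percent that fell in exons and in mitochondrial genes. The counting tool and annotation release are not given in the sources used here. Of 25965 rows, 25899 genes remained with 1 row a symbol, and 0 value columns were left unused. Reads were recovered by setting the lowest value of a library, a gene without a read, to 0.9 reads, and 100% of the values of 1 to 1000 reads came out whole within 0.02. RPM per kb uses the summed exons of a gene.

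Genes whose log2 RPM passed 1 in 4 or more of the compared libraries entered limma 3.58.1, run in R 4.3.3, with a trend of the variance over the mean, and p-values were adjusted by Benjamini-Hochberg. The alternatives were log2 of RPM plus 1, no filter, a stricter one (2 in 7 libraries), a replicate block for the donor, a term for the experiment, Experiment 2 by itself, the libraries that failed quality added, a joint fit of the 4 groups, RPM without mitochondrial genes, library medians set equal, edgeR 4.0.16 and DESeq2 1.42.0 on recovered reads, and leaving out each library. Centring on MuSC markers and leaving out grafts of under 20 cells were added after seeing the data. Libraries of 1 number come from 1 donor mouse. Deviations from the group means of the same donor correlated at -0.11 to 0.23 (median 0.08, 7 donors) between EOM and TA before grafting, and with medians of -0.04, 0.02 and 0.04 for the other pairs of groups. The text names all members, the cluster partners, and of the other imprinted genes the called ones, at most 8 a comparison by size. The scripts were tested on simulated data. Intervals of counts cover counting error only, since reads are not molecules. The bisulfite libraries were not used here. One item is not reported here.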

Additional observations from a re-analysis of the deposited data

Results flagged for a closer look

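Of 36 sets of values (9 genes in 4 groups), 4 held a library whose distance to its nearest neighbour was a large share of the range of its group, above Dixon's critical value at the 95% level, and chance gives about 1 in 20. *H19* in TA before grafting of mouse 1 of Experiment 2 had 0 reads and a log2 RPM of -1.02, against 3.61 for the next library (share 0.755). *Grb10* in the TA graft of mouse 3 of Experiment 2 had 11 reads and 3.17, against 6.24 (share 0.658), in a library with 81.1% mitochondrial reads and a summed MuSC marker level of 326 RPM, the lowest of the grafts. *Sgce* was low in both pre-graft libraries of mouse 1 of Experiment 2, at 5.52 in EOM against 6.06 (share 0.539) and at 3.45 in TA against 5.33. For *Nespas* the changes of the muscles (EOM minus TA) differed by -4.59 (SE 0.87, limma adjusted p = 0.00665), which had 39 to 114 reads in EOM before grafting, 0 to 12 in the EOM grafts, 0 to 11 in TA before grafting and 0 in all 7 TA grafts. With 5 of 8 TA libraries at 0 reads before grafting, TA had little room to fall, and the muscles already differed before grafting (-5.22). The difference of changes was not called by edgeR, by DESeq2, after centring on MuSC markers, without a filter or with all libraries.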

How the results depend on the processing

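Of 9 genes in 5 comparisons, *Meg3* kept its call after grafting in 14 of 14 settings in both muscles (-4.90 to -2.45 in EOM and -4.55 to -1.63 in TA), and *H19* was called before grafting in 12 of 13. The 2 genes called before grafting became 1 with the donor mouse as replicate block, all libraries, RPM without mitochondrial genes, centring on the median, edgeR or DESeq2, 0 in 1 fit over all 4 groups, and 1 to 2 when single libraries were left out. The 6 called in TA after grafting became 3 by centring on the median, edgeR and DESeq2 (5 to 7 without single libraries), and the 9 in EOM became 4 without mitochondrial genes and by DESeq2, 3 by centring on the median and edgeR, and 2 by centring on MuSC markers, 1 of them lower and 1 higher (6 to 9 without single libraries). In TA that centring gave 1 lower and 3 higher. *Mest* gained a call before grafting in Experiment 2 alone (-1.07). The cause was not tested. Directions turned as follows. Before grafting *Dlk1* was at 0.74 (edgeR) and 0.75 (DESeq2). In TA after grafting, centring on markers gave 0.59 (*H19*), 1.35 (*Grb10*), 0.50 (*Dlk1*), 0.57 (*Peg3*), 0.15 (*Mest*), 2.59 (*Plagl1*) and 2.50 (*Sgce*). *H19* was at 0.77 by edgeR. *Plagl1* was at 0.29 without mitochondrial genes, 0.59 centred on the median, 0.65 (edgeR), 0.76 (DESeq2), 0.073 without grafts of under 20 cells and -0.50 to 0.14 without single libraries, and *Sgce* at 0.19, 0.49, 0.41, 0.51 and 0.17 in the first 5 of these. In EOM after grafting, centring on markers gave 0.51 (*H19*), 0.51 (*Grb10*), 0.58 (*Peg3*), 0.75 (*Plagl1*) and 1.25 (*Sgce*). *H19* was at 0.046 by DESeq2, *Plagl1* at 0.15 (edgeR) and 0.20 (DESeq2), and *Sgce* at 0.11 centred on the median, 0.12 (edgeR) and 0.21 (DESeq2). Between grafts *Grb10* was at -0.13 with all libraries, -0.088 without mitochondrial genes, -0.078 centred on the median and -0.19 to 0.59 without single libraries. *Ndn* was at 0.36 (edgeR), 0.33 (DESeq2), 0.23 centred on markers and -0.81 to 0.40 without single libraries. *Sgce* was at -0.00051 on log2 of RPM plus 1, -0.16 with all libraries, -0.12 without mitochondrial genes, -0.11 centred on the median, -0.028 (edgeR), -0.054 (DESeq2) and -0.40 to 0.40 without single libraries. For the difference of changes, *H19* was at -0.43 in Experiment 2 alone, -0.67 (edgeR), -1.04 (DESeq2), -0.081 centred on markers and -0.044 to 1.30 without single libraries. *Meg3* was at 0.10 and *Grb10* at 0.088 centred on the median, *Dlk1* at 0.48 by DESeq2, and *Peg3* at -0.12 in Experiment 2 alone and -0.070 to 0.86 without single libraries. *Mest* was at 0.12 without mitochondrial genes, 0.25 centred on the median, 0.18 (edgeR), 0.21 (DESeq2) and -0.49 to 0.28 without single libraries, and *Ndn* at 0.12 without grafts of under 20 cells and -1.18 to 0.037 without single libraries. Among the 9 genes the replicate block also ended the calls of *Dlk1* in TA and of *H19*, *Plagl1* and *Sgce* in EOM, and among other genes those named in the report.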
